A study of Mus musculus with 9 samples.

Results

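A set of 107 genes had their highest transcript level in CD45-depleted mouse thymus cells at day 4 after irradiation. They came out of 18193 genes read by a probe set with a single gene symbol. The members were chosen by their measured values. Each gene was read by its probe set of highest mean across the 9 arrays, whose day 4 mean had to reach 6 on the log2 scale and lie at least 1, that is 2-fold, above both the untreated and the day 7 mean. The lowest day 4 array also had to lie above the other 6 arrays, and genes of the keratin, collagen, Mmp, Adamts, chemokine, Saa, Reg3, Apo and interleukin families were left out by symbol. The name under which the set was proposed, genes that peak only at day 4, fits the rule. The rule did not require a return to the untreated level. At day 7, 58 of the 107 genes were still above untreated by the test given below, where 32.1% of all genes tested were. That count depended on the scaling of the arrays, and the rule had used the same untreated and day 7 arrays.

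The 3 groups were untreated mice and mice taken either 4 or 7 days after SL-TBI, with 3 arrays each. SL-TBI is usually read as sublethal total body irradiation. It was given as 550 cGy from a cesium source, and no hematopoietic rescue followed, so both irradiated groups lacked a transplant. All mice were C57BL/6J females 6 to 8 weeks old, and cells of several mice were pooled for each sample after CD45-bearing blood cells had been depleted with magnetic beads. The labels call the pooled cells ECs without explaining the abbreviation, and give no word on whether samples within a group were separate pools, so p-values measure the spread between these samples, which may be technical. Levels are GCRMA values on the log2 scale from a 3-prime expression array, on which 4 was taken as the detection level.

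The thymic stroma holds the epithelial cells that select developing T cells, together with fibroblasts of the capsule and septa, endothelium and pericytes. Fibroblasts lay down and remodel the matrix and secrete growth factors and complement proteins, and thymic epithelium is instructed partly through Notch, BMP and FGF signals. Irradiation kills most thymocytes within days, while many stromal cells survive.

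The arrays differed in the levels of cell type markers between the groups, and the members' values stand beside these shifts. The mean of the thymocyte markers was 9.13 to 9.58 in untreated samples, 3.37 to 3.68 at day 4 and 6.70 to 6.84 at day 7. Pan-leukocyte markers averaged 9.63 to 9.89 in untreated samples, 5.59 to 5.79 at day 4 and 6.92 to 7.14 at day 7. Leukocyte transcripts thus remained after the CD45 depletion, and were lowest at day 4. The fibroblast markers had list means of 9.50, 10.12 and 9.73 in untreated samples, 10.95, 10.77 and 11.38 at day 4, and 10.73, 10.67 and 10.41 at day 7. White adipocyte markers averaged 7.77 on day 4 replicate 1, against 6.11 and 6.41 on the other day 4 arrays and 5.44 to 5.85 in untreated samples. Cardiac muscle markers averaged 8.60 on day 7 replicate 1, against 3.85 and 5.46 on the other day 7 arrays. In such bulk samples, fewer cells of a type and less RNA per cell cannot be told apart. RNA quality moved with day 4 as well. The Actb 3-prime minus 5-prime value was 2.28 ± 0.15 in untreated samples, 3.13 ± 0.17 at day 4 and 2.51 ± 0.21 at day 7 (SD, n = 3 each). That of Gapdh was 0.90 ± 0.13, 1.37 ± 0.24 and 0.90 ± 0.21 (SD, n = 3 each), so it too was highest at day 4. For each gene, both day 4 comparisons gave an exact two-sided permutation p of 0.1, the smallest that 3 against 3 arrays can give. The part of these shifts in the members' values was not tested.

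The members that stood highest over both other groups were genes of xenobiotic metabolism, a sensory-type receptor, an epidermal transcription factor and a brake on G-protein signalling. Cyp2e1, a cytochrome P450 best known from liver that oxidises ethanol and other small molecules, had levels of 2.85, 3.27 and 2.85 in untreated samples, 8.42, 6.80 and 6.33 at day 4, and 4.21, 3.99 and 4.97 at day 7. All untreated arrays lay below the detection level, and the day 4 arrays spread widely, with replicate 1 far above the others. The day 4 mean was at least 9.06-fold above untreated. Day 4 replicate 1 was also the array with the most adipocyte transcripts, where Adipoq, the adipocyte hormone adiponectin, read 9.39, against 6.34 and 7.10 on the other day 4 arrays, and their part in the Cyp2e1 values was not tested. The day 4 excess of Cyp2e1, its day 4 mean minus the higher of the other 2 means, was 2.79 on the log2 scale.

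Ces1c, a carboxylesterase that mice secrete into plasma, read 4.01, 3.90 and 3.60 in untreated samples, 7.05, 6.63 and 6.39 at day 4, and 4.01, 3.96 and 3.83 at day 7. The untreated and day 7 arrays overlapped, and the excess of 2.76 was nearly that of Cyp2e1. Mrgprg, a Mas-related G-protein-coupled receptor, read 4.08, 4.43 and 4.03 in untreated samples, 5.15, 6.99 and 7.23 at day 4, and 4.50, 3.83 and 3.56 at day 7. Day 4 replicate 1 was well below the other day 4 arrays, and without that array the excess was 2.93 in place of 2.28. Zfp750, a zinc-finger factor of terminal epidermal differentiation, read 3.97, 4.42 and 3.35 in untreated samples, 6.10, 6.00 and 6.08 at day 4, and 3.93, 3.50 and 3.55 at day 7. Its day 4 arrays were close to each other, and all 3 day 7 arrays were below the detection level.

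Rgs4, which speeds the shut-off of G proteins, read 7.49, 7.78 and 7.21 in untreated samples, 9.80, 10.11 and 9.72 at day 4, and 8.02, 7.80 and 7.97 at day 7. The day 7 arrays lay just above the highest untreated array and far below day 4. Another probe set of Rgs4 gave an excess of 1.94, close to the 1.95 of the one used. That other probe set averaged 4.43 in untreated samples and 5.67 at day 7, farther apart than on the one used. Of the 107 members, 4 had an excess of at least 2, 16 of at least 1.5, and 52 were under 1.2.

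**Figure D1:**
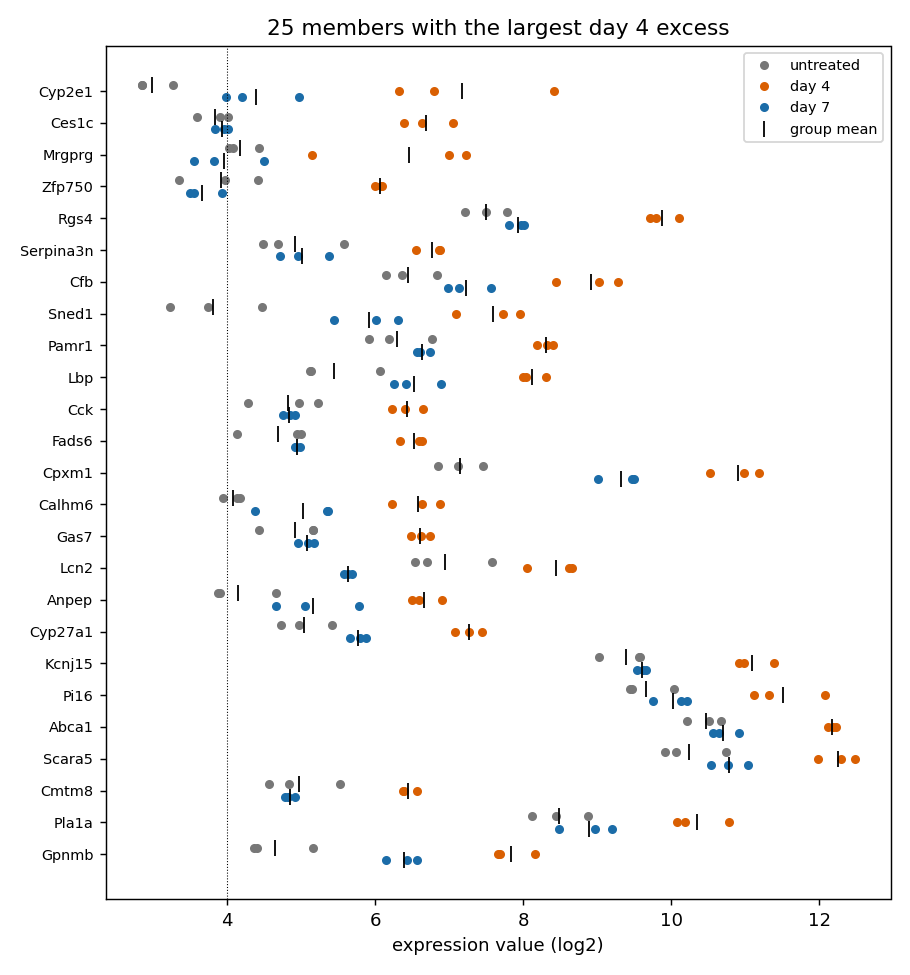
Log2 expression value on each of the 9 arrays for the 25 members with the largest day 4 excess, ordered from the largest at the top. Points are arrays of untreated, day 4 and day 7 samples, black bars are group means and the dotted line is the detection level of 4. Every day 4 point lies to the right of the other 6 arrays, as the rule required.

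Promoter sequences, taken from RefSeq on GRCm38.p6, are shown for members of large excess and for Lcn2, the 1 member lower at day 7 than untreated, to set their start regions side by side. They lie at chr7:140763569-140763868 on the plus strand for Cyp2e1, chr8:93131234-93131533 on the minus strand for Ces1c, chr7:143766944-143767243 on the minus strand for Mrgprg, and chr1:169747593-169747892 on the minus strand for Rgs4. Those of Serpina3n and Lcn2, which are described below, lie at chr12:104406458-104406757 on the plus strand and chr2:32387690-32387989 on the minus strand. Each runs 5-prime to 3-prime over the 250 bases before the start and the first 50 after it, and capitals mark a match to a motif given in the next paragraph.
Cyp2e1: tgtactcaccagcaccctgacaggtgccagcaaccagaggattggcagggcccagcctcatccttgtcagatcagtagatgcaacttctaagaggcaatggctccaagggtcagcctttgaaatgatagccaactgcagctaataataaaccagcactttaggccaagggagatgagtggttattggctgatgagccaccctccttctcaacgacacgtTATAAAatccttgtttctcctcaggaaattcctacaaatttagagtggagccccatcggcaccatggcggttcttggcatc
Ces1c: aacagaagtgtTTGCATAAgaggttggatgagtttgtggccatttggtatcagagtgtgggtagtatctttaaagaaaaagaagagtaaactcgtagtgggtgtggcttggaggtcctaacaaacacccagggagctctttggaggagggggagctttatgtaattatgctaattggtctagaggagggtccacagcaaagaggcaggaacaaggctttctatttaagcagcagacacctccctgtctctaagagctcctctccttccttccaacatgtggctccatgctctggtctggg
Mrgprg: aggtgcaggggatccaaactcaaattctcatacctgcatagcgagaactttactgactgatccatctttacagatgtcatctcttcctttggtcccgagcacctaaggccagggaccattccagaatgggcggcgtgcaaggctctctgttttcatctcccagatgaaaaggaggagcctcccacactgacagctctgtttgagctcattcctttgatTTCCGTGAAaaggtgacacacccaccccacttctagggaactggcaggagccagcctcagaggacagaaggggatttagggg
Rgs4: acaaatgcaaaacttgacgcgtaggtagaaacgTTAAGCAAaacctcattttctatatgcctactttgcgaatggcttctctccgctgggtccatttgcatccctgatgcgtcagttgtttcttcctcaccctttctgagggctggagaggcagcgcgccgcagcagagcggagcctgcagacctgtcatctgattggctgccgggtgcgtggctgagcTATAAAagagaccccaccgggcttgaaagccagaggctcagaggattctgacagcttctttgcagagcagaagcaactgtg
Serpina3n: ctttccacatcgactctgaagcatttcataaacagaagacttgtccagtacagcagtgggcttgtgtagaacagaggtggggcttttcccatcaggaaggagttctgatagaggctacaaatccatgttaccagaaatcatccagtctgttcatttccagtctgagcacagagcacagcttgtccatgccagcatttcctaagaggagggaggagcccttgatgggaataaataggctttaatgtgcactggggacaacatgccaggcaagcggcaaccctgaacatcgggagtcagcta
Lcn2: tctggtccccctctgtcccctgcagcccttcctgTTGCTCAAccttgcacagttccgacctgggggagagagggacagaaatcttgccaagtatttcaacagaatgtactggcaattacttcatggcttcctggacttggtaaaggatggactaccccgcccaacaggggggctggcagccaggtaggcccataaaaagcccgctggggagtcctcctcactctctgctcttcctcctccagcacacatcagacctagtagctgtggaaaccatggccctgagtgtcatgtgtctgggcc

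A set of 6 motifs was searched on both strands of each promoter, and a match is only a run of letters. They were TTCNNNGAA for STAT factors, GTGGGAA for RBPJ, the DNA-binding partner of Notch, TTGCNNAA for C/EBP, TATAAA for the TATA box, and the longer NF-kB and EBF motifs. No motif overlapped another in a promoter printed above. Promoters were matched for 77 of the 107 members and for 27025 genes in all. A C/EBP match was present in 15 member promoters (19.5%, against 10.8% of all), among them Ces1c, Rgs4 and Lcn2. An RBPJ match was present in 8 (10.4%, against 6.39% of all) and a STAT match in 3 (3.9%, against 8.47% of all), one of them Mrgprg. The TATA box stood in 9 (11.7%, against 14.2% of all), including Cyp2e1 and Rgs4, 31 bases before the start in both. EBF matched in 1 (1.3%, against 0.914% of all) and NF-kB in 0 (0%, against 1.43% of all). The window of Serpina3n held none of these letters.

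The rule fixed the day 4 peak, so the sizes at day 4 are a description. The median of the members' group means was 5.45 in untreated samples, 7.51 at day 4 and 6.23 at day 7. The day 4 minus untreated difference had a median of 1.96 and ran between 1.002 and 3.78 in the 105 members that reached the detection level on an untreated array, and the day 7 minus day 4 difference between -2.81 and -1.01, with a median of -1.23. Just inside the margin were Crabp2 with an excess of 1.002 and Mdk and Islr with 1.01 each, and just outside were Fgfr1, Kif5c and Fst with 0.99 each. When each array was left out in turn, 64 members kept an excess of at least 1 throughout. All 107 passed the filter on dim genes, 3 of them (Cyp2e1, Ces1c and Zfp750) only through their day 4 arrays. Another 8 genes met every criterion but the one on symbols, led by Mmp11, a stromelysin, with an excess of 1.88, Ccl8, a chemokine, with 1.66, Mmp3, another stromelysin, with 1.57, and Apod, a lipid carrier, with 1.43. The same rule turned to day 7 found 78 genes, and turned to untreated it found 500.

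The rule placed untreated and day 7 both below day 4 but set no order between them. That comparison was tested with limma over all genes. It was not free of the rule, which used the same untreated and day 7 arrays. A required rise at day 4 also left out genes that fell then. All 11 thymocyte markers tested, for example, were lower than untreated at day 4 and at day 7. The shares of all genes beside the members thus include genes that the rule could not choose. At day 7, 58 of the 107 members (54.2%) were higher than untreated, where 32.1% of all 10937 genes tested were. Only Lcn2 was lower, 0.935% of the members, where 22% of all genes were. The other 48 passed in neither direction. Cyp2e1, one of the 58, was tested only through its day 4 arrays. The day 7 mean was above the untreated mean in 91 members and below it in 16, and the median difference was 0.64 on the log2 scale, or 0.60 with Cyp2e1 and Cox8b at their lower bounds, against 0.09 over all genes. The day 7 and untreated arrays did not overlap in 60 members, and in 62.4% of all genes tested. The split depended on the scaling. With each array centred on the fibroblast, endothelium, pericyte and general epithelium lists, which lowered the median of all genes by 1.11, 11 members were higher and 53 lower at day 7, where 2.38% and 80.7% of all genes were. On that scale the members' median was -0.47, against -1.02 over all genes, and the median of each of the 9 roles described below was under 0 at day 7. The lists used for the centring did not move alike. On the deposited values their day 7 minus untreated medians were 2.97 for endothelium, 0.83 for pericytes and smooth muscle, 0.76 for fibroblasts and -0.54 for general epithelium. The directions at day 7 below are those of the deposited normalization. Of the 58 higher calls, 42 held in all 9 fits that left out 1 array and 16 were lost in at least 1.

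**Figure D2:**
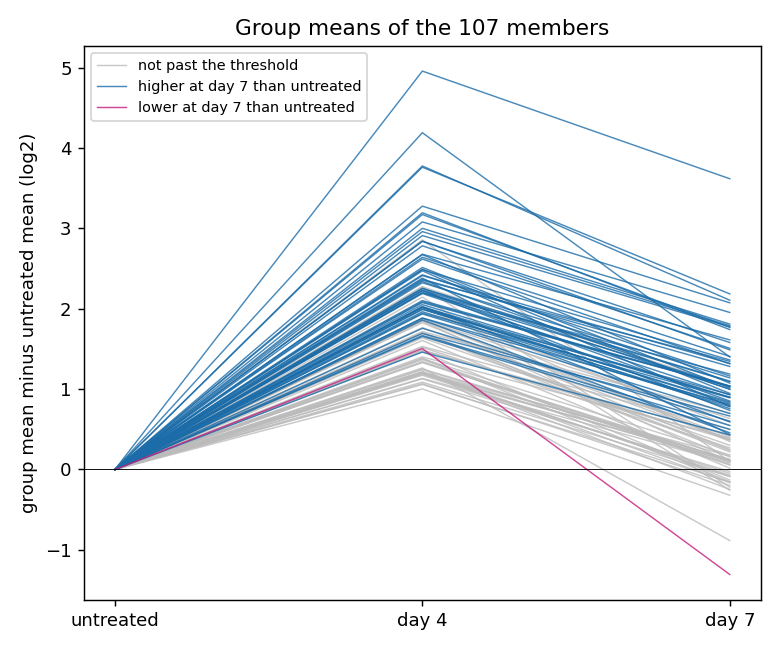
Group means of the 107 members at untreated, day 4 and day 7, each drawn as the log2 difference from its own untreated mean. Blue lines are the 58 genes higher at day 7 than untreated, the magenta line is Lcn2, the 1 gene lower, and grey lines are the 48 past the threshold in neither direction. Cox8b and Cyp2e1, below the detection level on all untreated arrays, are drawn at their measured differences.

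The genes that stayed highest over untreated at day 7 were matrix, vessel-growth and muscle-type genes and a miRNA host transcript. Cox8b, a subunit of cytochrome c oxidase found in muscle and brown fat, read 3.14, 3.41 and 2.97 in untreated samples, 8.49, 7.86 and 8.04 at day 4, and 6.99, 6.95 and 6.43 at day 7. It was below the detection level on all untreated arrays and well above it on all irradiated ones, at least 6.92-fold higher at day 7 than untreated (limma adjusted p = 8.1e-06). The brown adipocyte list had its highest mean on day 4 replicate 1, the array on which Cox8b was highest too. Ucp1, the uncoupling protein of brown fat, read 7.70 there, against 3.18 and 4.62 on the other day 4 arrays, and the part of brown fat in the Cox8b values was not tested. Of the 6 other brown adipocyte genes tested, 2 rose at day 4 and 2 at day 7 against untreated, where 41.8% and 32.1% of all genes did, and 0 fell in either.

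Vegfd, a growth factor for lymphatic vessels, read 3.97, 5.13 and 4.29 in untreated samples, 7.49, 7.60 and 8.14 at day 4, and 6.60, 6.58 and 6.43 at day 7. The 3 groups were fully apart, and the day 7 difference was 2.07 ± 0.28 (SE, limma adjusted p = 0.00039). Its probe set is one of 8 among the members whose probes can also match other transcripts by design. Mir205hg, the host transcript of the epithelial miR-205, was 1.81 ± 0.16 above untreated at day 7 (SE, limma adjusted p = 5.6e-05). It read 5.18, 5.30 and 5.19 in untreated samples, 8.43, 8.34 and 7.90 at day 4, and 7.25, 6.79 and 7.05 at day 7. Untreated arrays were nearly equal and both irradiated groups were clear of them. The array reads this host transcript only and gives no value for the miRNA. Both mature arms lie inside it on the minus strand of chromosome 1 (RefSeq, GRCm38.p6), and are shown because the transcript carries them, with the seed, bases 2 to 8, in capitals. Their seeds differ from each other.
mmu-miR-205-5p: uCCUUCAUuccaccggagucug
mmu-miR-205-3p: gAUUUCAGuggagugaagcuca

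**Figure D3:**
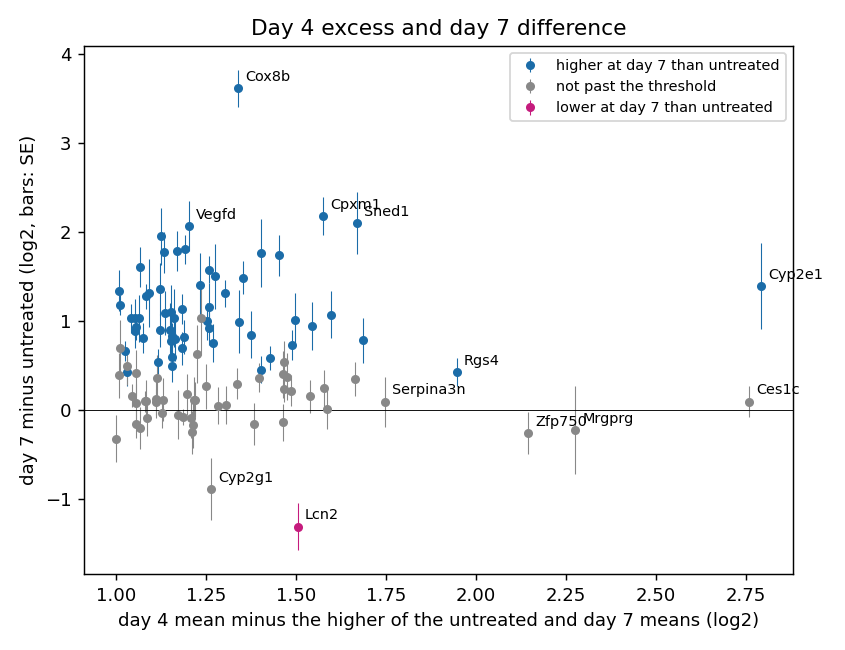
Each member's day 4 excess on the horizontal axis (log2) against its day 7 minus untreated difference on the vertical axis (log2, bars are SE, n = 3 arrays per group). Lcn2 lies lowest at -1.31, and Cpxm1 reads 2.18. Cox8b and Cyp2e1, below the detection level on all untreated arrays, are drawn at their measured differences, which are not bounds, and Zfp750 was below it on all day 7 arrays.

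Among the 22 members of the matrix, protease and mesenchymal surface group, 17 were above untreated at day 7, 0 were below and 5 passed in neither direction, with a median difference of 1.04. Of all genes tested, 32.1% were above untreated at day 7 and 22% below. Cpxm1, a secreted carboxypeptidase-like protein, read 6.85, 7.45 and 7.12 in untreated samples, 10.99, 10.53 and 11.19 at day 4, and 9.47, 9.49 and 9.02 at day 7. The groups did not overlap, and the difference at day 7 was 2.18 ± 0.22 (SE, limma adjusted p = 9.1e-05), that is 4.55-fold. Sned1, a matrix glycoprotein, read 3.23, 4.48 and 3.74 in untreated samples, 7.73, 7.09 and 7.96 at day 4, and 6.31, 6.02 and 5.44 at day 7. Its day 7 arrays all lay above the untreated ones, by 2.11 ± 0.35 on average (SE, limma adjusted p = 0.0011). Cathepsin K (Ctsk), a collagen-degrading protease, was 1.79 ± 0.23 higher and Srpx, a sushi-repeat protein, 1.95 ± 0.32 higher (SE, limma adjusted p = 0.00028 and 0.00097).

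Other genes of this group lay closer to untreated at day 7. Pi16, a marker of adventitial fibroblasts, read 9.45, 10.04 and 9.47 in untreated samples, 11.11, 11.33 and 12.08 at day 4, and 10.13, 10.21 and 9.75 at day 7. The day 7 and untreated arrays overlapped, and day 4 replicate 3 was the highest of all. Scara5, a ferritin receptor of stromal cells, and Pamr1, a secreted protein with a protease-like domain, were 0.55 and 0.35 above untreated at day 7 and did not pass (limma adjusted p = 0.071 and 0.15). Dpep1, a membrane dipeptidase, passed with 1.36 ± 0.30 and Islr, a mesenchymal surface protein, with 1.35 ± 0.23 (SE, limma adjusted p = 0.0043 and 0.0013). Anpep, aminopeptidase N, and Htra3, a secreted serine protease, passed with 1.02 and 1.04, but each lost the call on leaving out any of 3 single arrays. Day 4 replicate 3 was the highest day 4 array in 19 of the 22 and in 56 of all 107 members, and it also had the highest fibroblast list mean. The part of that in these values was not tested.

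Of the 11 fibroblast list genes tested that are not members, 10 rose and 1 fell at day 4 against untreated, where 41.8% of all genes rose and 21.4% fell, with a median of 1.38 against 0.20 over all genes. That all-gene median was 0.08 with quantile normalization and -0.43 with the stromal centring. At day 7 against untreated 9 rose and 1 fell, where 32.1% and 22% of all genes did. The day 7 median of the whole fibroblast list, 0.76, became -0.34 with the stromal centring. Lum, a small matrix proteoglycan, was 1.77 higher at day 4 and 1.24 higher at day 7 than untreated, and its day 7 minus day 4 difference of -0.53 did not pass (limma adjusted p = 0.073). Thy1, which thymocytes carry as well as fibroblasts, was the gene that fell, by 2.61 at day 4. In the list of matrix carboxypeptidases and proteases, 8 of the 9 genes other than the members Cpxm1, Htra3 and Ctsk rose at day 4 and 6 at day 7 against untreated, with 0 lower. The day 7 median of that whole list, 1.07, became -0.04 with the stromal centring. Aebp1, a collagen-binding relative of Cpxm1, was 2.74 and 2.27 above untreated at day 4 and day 7. Of the 20 genes of non-collagen matrix tested besides Sned1, 17 rose and 1 fell at day 4, and 17 rose at day 7, and the day 7 median of the whole list, 1.06, became -0.05 with the stromal centring.

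The 8 acute-phase, complement and innate-defence members differed in how far they stood from untreated at day 7, with 5 higher, Lcn2 lower and 2 in neither direction. Of all genes, 32.1% were higher and 22% lower. Serpina3n, an acute-phase inhibitor of serine proteases, read 4.49, 5.58 and 4.68 in untreated samples, 6.55, 6.86 and 6.87 at day 4, and 5.38, 4.96 and 4.71 at day 7. The day 7 and untreated arrays overlapped (difference 0.10, limma adjusted p = 0.79). Complement factor B (Cfb), the protease of the alternative pathway, read 6.15, 6.83 and 6.36 in untreated samples, 9.02, 8.45 and 9.29 at day 4, and 7.14, 7.57 and 6.99 at day 7. Its day 7 arrays were above all untreated ones by a small gap, and the difference of 0.79 ± 0.25 (SE, limma adjusted p = 0.028) lost its call on leaving out any of 4 single arrays. Lbp, which hands bacterial lipopolysaccharide to its receptor, was 1.07 ± 0.26 higher (SE, limma adjusted p = 0.0081). Calhm6, a channel protein of immune cells, was 0.95 ± 0.27 higher, and that call was lost without either of 2 arrays. The highest day 4 array was replicate 3 in 7 of these 8 genes and in 56 of all 107 members.

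Lcn2, a lipocalin that withholds iron from bacteria by binding their siderophores, was the only member past the threshold as lower at day 7 than untreated. It read 6.70, 7.58 and 6.54 in untreated samples, 8.66, 8.62 and 8.05 at day 4, and 5.58, 5.63 and 5.69 at day 7. Day 7 arrays were nearly identical and lay below every untreated array. The difference was -1.31 ± 0.26 (SE, limma adjusted p = 0.0031), a 2.47-fold lower level, and the call held in all 9 fits that left out an array. Lcn2 was the member in the list of glucocorticoid-responsive genes. Of the 7 others tested there, 2 rose and 4 fell at day 4, and 2 rose and 3 fell at day 7 against untreated. Their medians were -0.71 and 0.12. Of all genes, 41.8% rose and 21.4% fell at day 4, and 32.1% rose and 22% fell at day 7. Neutrophils also make Lcn2, and 5 of the 6 neutrophil markers tested fell at day 4 and 5 at day 7 against untreated, where 21.4% and 22% of all genes fell. The neutrophil medians were -2.26 at day 4 and -2.74 at day 7, while Lcn2 was 1.505 above untreated at day 4, as the rule required. The part of neutrophils in the Lcn2 values was not tested.

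The 3 tested genes of the complement list other than Cfb rose at both times, where 41.8% of all genes rose at day 4 and 32.1% at day 7. Their medians were 2.26 at day 4 and 1.33 at day 7 against untreated. The medians of the whole list of 4 were 2.28 and 1.18, and 1.65 and 0.07 with the stromal centring. C1ra, a protease of the first complement component, was 2.26 above untreated at day 4 and 1.33 at day 7, C2 was 2.31 and 1.77 above, and Serping1, the inhibitor of that first component, 1.80 and 1.02.

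**Figure D4:**
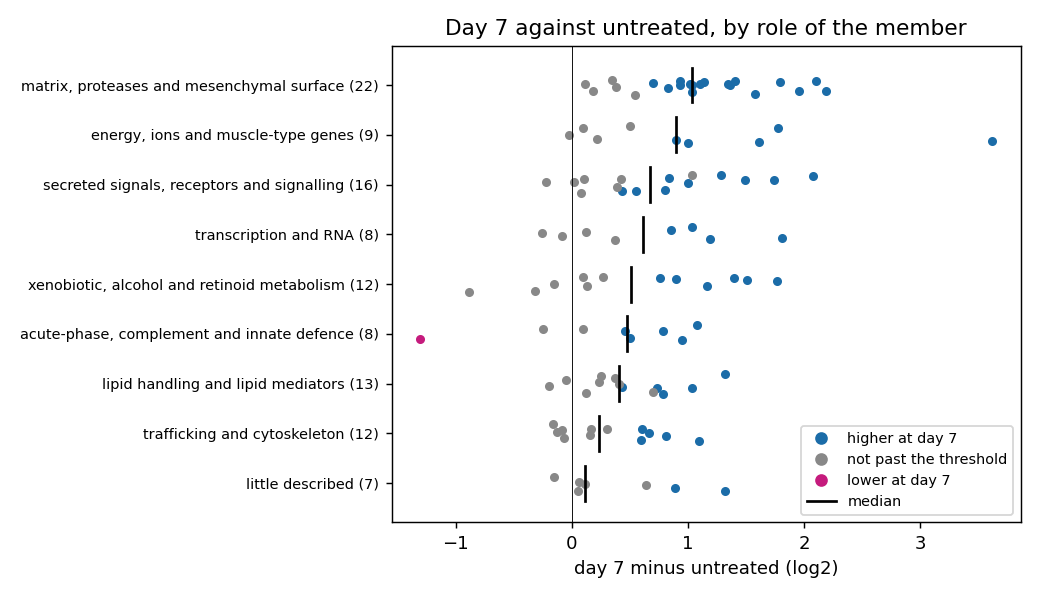
Day 7 minus untreated difference (log2) of each member, by role, with the number of members in brackets and the median of each role as a black bar. Medians run from 1.04 for matrix genes down to 0.11 for little described genes, and the magenta point is Lcn2. Cox8b and Cyp2e1, below the detection level on all untreated arrays, are drawn at their measured differences.

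Genes of xenobiotic, alcohol and retinoid metabolism numbered 12, of which 6 were above untreated at day 7, 0 below and 6 in neither direction. Of all genes, 32.1% were above and 22% below. Cyp2e1 and Ces1c were tested only by virtue of their day 4 arrays, where the rule required high values. The Cyp2e1 call, counted among the 6, is therefore a description. Cyp2e1 averaged 4.39 at day 7 and 2.99 in untreated samples, that is at least 1.31-fold higher. Its measured difference of 1.40 passed (limma adjusted p = 0.036). That call was lost on leaving out any of 4 single arrays, and also with no filter on dim genes. Ces1c reached the detection level on only 1 day 7 array and 1 untreated array, and was past the threshold in neither direction. Adh1, an alcohol dehydrogenase that also oxidises retinol, read 7.58, 8.53 and 7.37 in untreated samples, 10.11, 10.16 and 10.47 at day 4, and 9.05, 8.91 and 9.0002 at day 7. Its groups were apart, although untreated replicate 2 came close to day 7 (difference 1.16 ± 0.26, SE, limma adjusted p = 0.0053). Ces1d, a lipid-hydrolysing carboxylesterase, was 0.90 ± 0.19 higher (SE, limma adjusted p = 0.0035). Crabp2, a carrier of retinoic acid, read 0.32 below untreated and did not pass (limma adjusted p = 0.33). Of the 11 genes tested in the xenobiotic list other than the members Cyp2e1, Adh1 and Ces1d, 8 rose at day 4 against untreated with 0 lower, where 41.8% of all genes rose. At day 7, 8 of them rose and 2 fell, where 32.1% and 22% of all genes did. The day 7 median of that whole list, 1.08, was 0.94 with Cyp2e1 at its lower bound and -0.03 with the stromal centring. Ephx1, an epoxide hydrolase, was 2.27 above untreated at day 4 and 1.70 at day 7, and Fmo2, a flavin monooxygenase, 2.62 and 2.54 above.

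Of 13 members of lipid handling, 5 were above untreated at day 7, where 32.1% of all genes were, and 8 passed in neither direction. Abca1, which exports cholesterol from cells, read 10.22, 10.51 and 10.68 in untreated samples, 12.19, 12.11 and 12.22 at day 4, and 10.91, 10.56 and 10.64 at day 7. Day 7 and untreated overlapped, while the day 4 arrays were tightly grouped 1.47 above day 7. Cyp27a1, the sterol 27-hydroxylase, stayed 0.73 ± 0.17 higher (SE, limma adjusted p = 0.0067), and Pla1a, a phospholipase that acts on phosphatidylserine, and Fads6, a desaturase family member, were 0.40 and 0.25 above untreated and did not pass. Day 4 replicate 1, which had the highest white adipocyte list mean, was the highest day 4 array in 0 of these 13 genes and in 15 of all 107 members. The part of adipocytes in these values was not tested.

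The 16 members that encode signals, receptors and their regulators split into 9 above untreated at day 7, where 32.1% of all genes were, and 7 in neither direction. Cck, a peptide hormone, read 4.97, 5.23 and 4.28 in untreated samples, 6.65, 6.41 and 6.23 at day 4, and 4.92, 4.85 and 4.75 at day 7. The day 7 arrays lay within the untreated range. Gpnmb, a transmembrane glycoprotein, and Ddit4l, an inhibitor of mTOR signalling, were 1.74 ± 0.23 and 1.49 ± 0.19 higher at day 7 (SE, limma adjusted p = 0.00037 and 0.00027). Inhbb, the beta-B subunit of activins and inhibins, was 0.55 ± 0.14 higher (SE, limma adjusted p = 0.011), Rgs4 was 0.43 ± 0.16 higher (SE, limma adjusted p = 0.044), and the Rgs4 call was lost on leaving out any of 6 single arrays. Against untreated, 41.8% of all genes rose and 21.4% fell at day 4, and 32.1% rose and 22% fell at day 7. Of the 10 genes tested in the BMP and TGF-beta list besides Inhbb, 6 rose at day 4 with 0 lower, and 7 rose and 1 fell at day 7 against untreated. The day 7 median of that whole list, 1.02, was 0.64 with 1 gene at its lower bound and -0.09 with the stromal centring. Gdf10, a relative of the BMPs, was 2.48 above untreated at day 4 and 1.65 at day 7. Of the 10 p53 targets tested other than Ddit4l, 7 rose and 2 fell at day 4, and 6 rose and 2 fell at day 7, beside the same all-gene shares. The day 7 median of the whole p53 list, 0.84, became -0.26 with the stromal centring. Eda2r, a p53-induced receptor, was below the detection level on all untreated arrays and was at least 3.24-fold above untreated at day 4 and at least 2.50-fold at day 7 (limma adjusted p = 2.5e-06 and 2e-05). Mdk, the heparin-binding growth factor midkine, was 0.39 above untreated and did not pass (limma adjusted p = 0.22).

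A pair of members belong to the Notch pathway. Nrarp, a feedback inhibitor of Notch, read 5.71, 5.73 and 5.39 in untreated samples, 6.90, 6.80 and 6.69 at day 4, and 5.75, 5.58 and 5.81 at day 7. Its day 7 and untreated arrays overlapped (difference 0.10, limma adjusted p = 0.50). Heyl, a transcriptional repressor induced by Notch, read 4.59, 4.81 and 4.17 in untreated samples, 6.39, 6.66 and 6.40 at day 4, and 5.61, 4.77 and 5.59 at day 7. Day 7 replicate 2 fell inside the untreated range, and the difference of 0.80 ± 0.24 (SE, limma adjusted p = 0.021) was lost on leaving out any of 3 single arrays. Of the 10 other Notch genes tested, 9 rose at day 4 with 0 lower, and 8 rose at day 7 with 0 lower against untreated, where 41.8% and 32.1% of all genes rose. Their medians were 1.13 and 0.74. The day 7 median of the whole list, 0.69, became -0.41 with the stromal centring. Hey1 and Hes1, both Notch target repressors, and Jag1, a ligand, had day 7 minus day 4 differences of -0.61, -0.72 and -0.62, past the threshold as 17.6% of all genes tested were, while Dll4, the ligand by which thymic epithelium commits T cells, was 0.73 higher at day 7 than at day 4 (limma adjusted p = 0.0048), where 9.78% of all were.

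The remaining roles were smaller, and their counts stand beside the 32.1% of all genes that were above untreated at day 7. Of 9 members for energy, ions and muscle-type genes, 5 were above untreated at day 7. Ryr3, a calcium release channel, was 1.78 ± 0.23 higher (SE, limma adjusted p = 0.00035), whereas Kcnj15, an inward rectifier potassium channel, read 9.57, 9.58 and 9.02 in untreated samples, 10.98, 11.39 and 10.92 at day 4, and 9.67, 9.53 and 9.63 at day 7. Kcnj15 thus overlapped between day 7 and untreated on this probe set. Its excess was 1.49 on the probe set used and 2.28 and 1.34 on the other 2. Of those 2, the first averaged 5.40 in untreated samples and 5.38 at day 7. The second averaged 5.49 and 6.49, and so stood higher at day 7. Of the 8 other genes tested in the list of stromal ion channels and transporters, 5 rose at day 4 with 0 lower. Of all genes, 41.8% rose and 21.4% fell at day 4. At day 7 against untreated 5 rose and 1 fell, where 32.1% and 22% of all genes did. The day 7 median of the whole list, 0.64, became -0.46 with the stromal centring. Of 8 members for transcription and RNA, 4 were above untreated at day 7, and Zfp750, below the detection level on all day 7 and 2 untreated arrays, was past the threshold in neither direction. Among 12 trafficking and cytoskeleton genes 5 were higher at day 7, where 32.1% of all genes were, and Gas7, a membrane-shaping adaptor, and Cmtm8, a chemokine-like membrane protein, were near untreated at 0.16 and -0.13. Of the 7 little described members 2 were higher.

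The array reads many of these genes with further probe sets, which the rule did not use, although they come from the same samples. There were 86 other probe sets for 54 of the members, and 37 of them, for 30 genes, reached the detection level on at least 3 arrays. A probe set could reach it through its day 4 arrays alone, and a high day 4 mean was then part of the filter. One of Pi16, for example, averaged 3.68 in untreated samples, 4.90 at day 4 and 3.58 at day 7. The counts below are therefore a description. The day 4 mean was the highest of the 3 in 36 of these 37, the excess was at least 1 in 19, and the day 4 arrays were above all the others in 32. The median excess was 1.08. The exception was a probe set of Aif1l, an actin-bundling protein, which read 4.66 in untreated samples, 4.88 at day 4 and 5.22 at day 7, while the probe set used, which can match related transcripts by design, had an excess of 1.22. The other 49 were too dim to compare, and not all of them were highest at day 4. One of Angptl1 averaged 3.84 in untreated samples, 3.17 at day 4 and 3.31 at day 7.

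**Figure D5:**
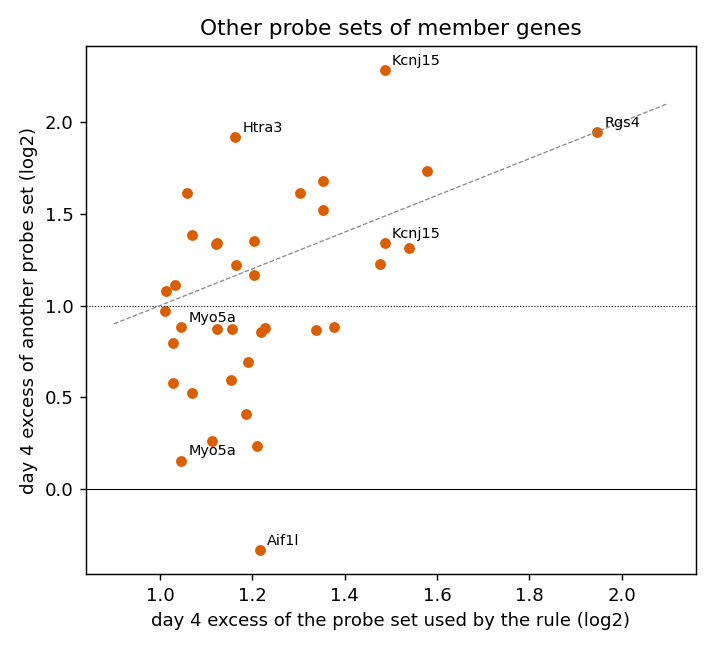
Day 4 excess (log2) of the 37 other probe sets at the detection level against that of the probe set used for the same gene. The dashed line marks equal values, the dotted line an excess of 1 and the solid line 0. Of the points 19 are at or above 1, and Aif1l alone is below 0, at -0.33.

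The replicates of a group were not equally placed. Over the 107 members the mean level was 5.80, 6.24 and 5.69 on the untreated arrays, 7.89, 7.89 and 8.00 at day 4, and 6.69, 6.53 and 6.55 at day 7. Untreated replicate 2 was the highest untreated array in 87 members, and it also had the highest untreated fibroblast list mean. Without it, 64 members in place of 58 were above untreated at day 7 (33.8% of all genes), and without untreated replicate 1 there were 44 (26% of all genes).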

How the data were processed

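Transcript levels of CD45-depleted mouse thymus cells were measured on 9 Affymetrix MOE 430 2.0 arrays. The deposited table gave 1 log2 value per probe set and array, made by the authors with GCRMA, per the submitters' processing notes; its version is not given in the sources used here, and base 2 was read off the range of the values. GCRMA removes background by probe sequence before it normalizes the arrays and combines probes. Between 26.1% and 27.2% of each array's values were equal to the lowest value, 2.27, which compresses differences of dim genes. Of 45101 probe sets, 64 controls were set aside, 34945 had 1 symbol, 932 several and 9160 none, and 34741 matched RefSeq by gene identifier.

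Genes at or above 4 on at least 3 arrays (10937) entered 1 linear model over all 9 arrays (limma 3.58.1, lmFit and eBayes, R 4.3.3), with Benjamini-Hochberg adjustment over all of them at 0.05. Adjusted p-values come from that model, and 3 arrays per group limit the precision. Folds against a group below 4 on every array are lower bounds from that level, and p-values beside them belong to the measured differences. For members, only day 7 against untreated was read as a test, since the rule used both other comparisons. That test still shares its arrays with the rule. Replicate numbers were not used to pair samples in the main model. Deviations from the group means correlated between -0.12 and 0.18 for same-numbered samples, and between -0.29 and 0.21 for differently numbered ones. With 3 arrays per group these values cannot exclude a shared batch.

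The members and the 39 gene lists were chosen with earlier results of these data known, and the roles were assigned after the members were seen. Named were the 25 members of largest excess, members in a list, up to 8 with the largest day 7 differences each way, the 5 with the highest day 4 mean, genes at the edges of the rule, and up to 4 other genes of a member's list by smallest adjusted p at day 4. Alternatives covered the filter, the probe set rule, normalization, model and each array in turn. Scripts were tested on simulated data. Figures used matplotlib 3.10.9, Python 3.11 and pandas 2.3.3.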

Additional observations from a re-analysis of the deposited data

How the results depend on the processing

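Under the alternatives other than those named here, the count of members higher at day 7 than untreated stayed within 1.5 times of 58, including 42 with no filter on dim genes (17.4% of all genes). Leaving out 1 array gave 44 to 64 higher (26% to 33.8% of all genes) and 1 to 4 lower (17.4% to 22.5% of all genes), with the 4 (Zfp750, Lcn2, Cyp2g1 and Ggt5, named after their values were seen) without untreated replicate 3. Lower calls numbered 2 (Lcn2 and Cyp2g1) with quantile normalization, centring on the kept genes, an intensity trend or array weights. The replicate block gave 53 higher and 2 lower. Centring on the 4 stromal lists gave 11 higher and 53 lower, the 11 being Sned1, Cpxm1, Gpnmb, Cox8b, Adam28, Vegfd, Mir205hg, Ctsk, Ryr3, Srpx and Amy1.

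The same centring turned the day 7 difference to -0.87 for Abca1, -0.0895 for Anpep, -0.16 for Calhm6, -1.09 for Cck, -1.01 for Ces1c and Serpina3n, -0.21 for Ces1d, -0.32 for Cfb, -0.37 for Cyp27a1, -0.86 for Fads6, -0.95 for Gas7, -0.31 for Heyl, -0.0675 for Htra3, -0.56 for Inhbb and Scara5, -0.89 for Kcnj15, -0.0315 for Lbp, -0.71 for Mdk, -1.0033 for Nrarp, -0.76 for Pamr1, -0.73 for Pi16, -0.70 for Pla1a and -0.67 for Rgs4. By construction it sets the mean of those lists equal on all arrays.

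The number of genes the rule found was 741 with an excess of at least 0.5, 16 with 1.5, 4 with 2, 40 with a day 4 mean of at least 8, and 213 with the stromal centring, of which 72 were members. Leaving out 1 array gave 99 to 124. Averaging the probe sets of each gene gave 75, of which 67 were members, and quantile normalization gave 81. Differences of dim genes are limited by the background level of the array.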
